A study of Mus musculus with 10 samples.

Results

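Lymphatic endothelial cells (LECs) with high levels of Mest, Ptx3, Mrc1, Gap43, Aqp1 and Cd276 were described among single LECs sorted from mouse skin. Each well of a plate held 1 sorted cell, and its score was the mean of log2(CPM + 1) over the 6 genes, where CPM scales a gene's count to a total of 1000000 gene counts in the well. The wells were thus chosen by the levels of these 6 genes. Wells with at least 50000 gene counts and 1000 detected genes were kept, and those above the 85th percentile of the score in the pooled wells of the 4 Cre-negative plates were taken as the score-high wells. They numbered 664 of the 2639 kept wells, and the 8 plates held 3048 wells in all. The cut lay at a score of 4.24 and marks a range, not a cell type. The lowest score-high well was at 4.243 and the highest of the other wells at 4.240, with 88 wells within 0.25 above the cut and 78 within 0.25 below it.

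There were 2 plates from each of 4 genotypes. The control plates were from Tie1 fl/fl mice and from mice with floxed alleles of both Tie1 and Tie2 (Tie2 is encoded by Tek), and the deleted plates were from the same strains carrying Prox1-CreERT2, a tamoxifen-activated Cre recombinase driven from the Prox1 gene. All pups, controls included, received 4-hydroxytamoxifen on postnatal days 1 to 5, so deletion depended on cells that express Prox1. According to the paper, the LECs came from ear skin taken weeks after those doses. Cells were sorted on Podoplanin and CD31. The first control and the first deleted plate of the Tie1 strain were from female mice and the other 6 plates from male mice. How many mice contributed to a plate is not given in the sources used here. A plate was therefore 1 sample, and p-values measure only the spread between plates. The kept wells held 67620042 to 106658107 counts per plate, and the score-high wells 6427019 to 49729143. The deposited tables have a layout with gene symbols and one with Ensembl identifiers, and each genotype has 1 plate of each. The median kept well had 5873 to 7311.5 detected genes in the plates with symbols and 3635 to 5002 in the others.

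LECs line the vessels that return tissue fluid and immune cells to the blood. Initial capillaries take up fluid through loose junctions and express much Lyve1, whereas collecting vessels carry valves built by LECs with high Foxc2, Gata2 and Cldn11. Tie1 and Tie2 are receptor tyrosine kinases of endothelial cells, Tie2 binds the angiopoietins, and Angpt2 encodes the angiopoietin that endothelial cells release. Of the score genes, Mest encodes an alpha/beta hydrolase fold protein and is imprinted, so that the paternal copy is expressed. Ptx3 encodes a secreted pattern recognition protein, Mrc1 the mannose receptor, Gap43 a growth cone protein of neurons, Aqp1 a water channel and Cd276 the immune checkpoint ligand B7-H3.

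The targeted genes followed the labels. Over all kept wells the Tie1 level was 2357 and 2724 CPM for Tie1 fl/fl, 698 and 635 CPM for Tie1-deleted, 2689 and 2571 CPM for the controls of the double strain and 711 and 478 CPM for the Tie1/-2-deleted plates. The deleted plates lay below all control plates. Tek was at 227 and 324, 218 and 240, 300 and 292, and 32.4 and 54.4 CPM in the same order, and so was low in the Tie1/-2-deleted plates alone. In the score-high wells Tie1 was at 2383 and 2302, 535 and 612, 2672 and 2527, and 859 and 502 CPM, and Tek at 140 and 232, 211 and 72.6, 161 and 191, and 46.0 and 32.2 CPM. Tie1 thus separated deleted from control plates within the score-high wells too, whereas the Tek level of the second Tie1-deleted plate came close to those of the Tie1/-2-deleted plates.

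The identity of the cells was checked against markers. Prox1, the transcription factor that specifies LECs, had a read in 661 of the 664 score-high wells, Flt4 (VEGFR3) in 663 and Lyve1 in 664. Macrophages express Mrc1 as well, so leukocyte markers were counted in the same wells. Ptprc, which encodes CD45, had a read in 2 score-high wells (0.301%), against 0.861% of the other wells. C1qa had a read in 3, the macrophage marker Adgre1 in 1 and Cd163 in 10 score-high wells. The 12 macrophage and leukocyte markers together were at 19.1 CPM in the score-high and 19.1 CPM in the other wells (means of 8 plates), and 8 of them were under 1 CPM in the score-high wells. Csf1r, the receptor of a macrophage growth factor, had most of these reads, at 11.5 and 13.4 CPM, and was detected in 20.7% of the score-high and 17.2% of the other wells (means of 8 plates), with the higher share in the score-high wells of 7 of 8. F13a1 was detected in 0.753% and 0.304%. Itgb2, a leukocyte integrin chain outside that list, had a read in 89 score-high wells, and 0 of these had a read of Ptprc. Its share of wells was higher in 8 of 8 plates, with a mean over plates of 15.9% against 10.7%. The part of Csf1r and Itgb2 reads in the results was not tested. Nearly all score-high wells thus had reads of the LEC markers.

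**Figure D1:**
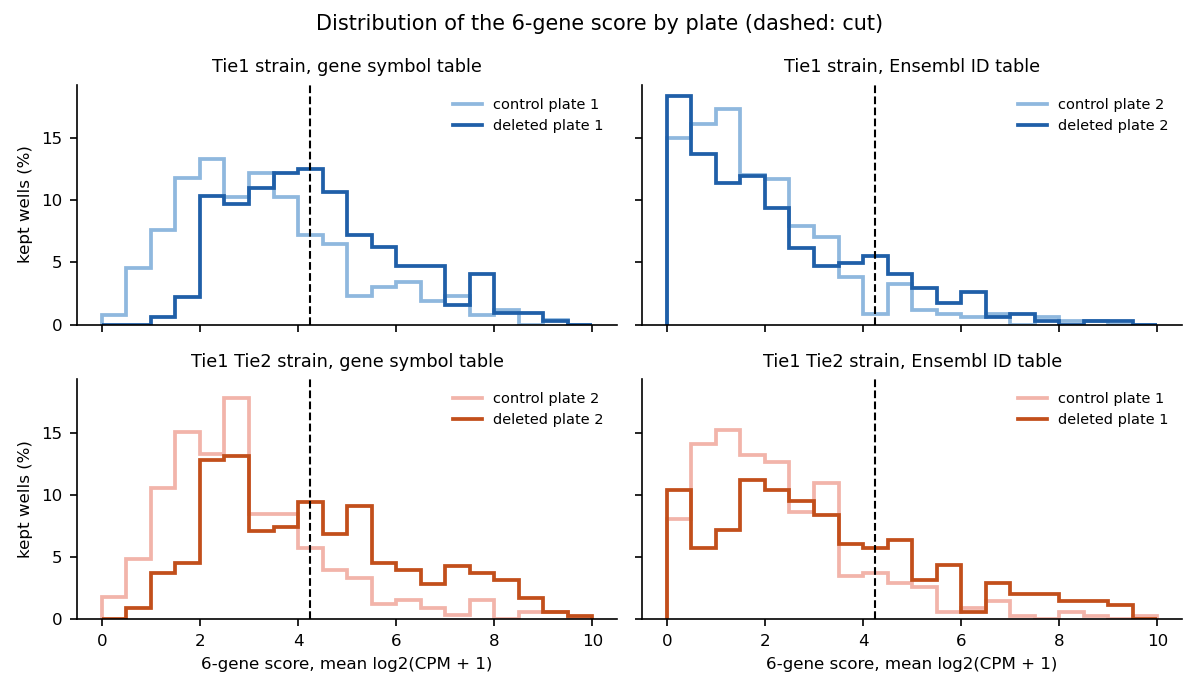
Distribution of the 6-gene score (mean log2(CPM + 1), x axis) as a percentage of the kept wells (y axis) in each of 8 plates, with the control and deleted plate of the same table layout in 1 panel and the cut of 4.24 dashed. The scores form 1 continuous range in every plate with no gap at the cut, and plates with gene symbols have fewer wells near 0.

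The score-high wells did not all carry the same genes. All had reads of at least 3 of the 6 score genes, and 227 (34.2%) had reads of all 6, against 2.53% of the other wells. As means of 8 plates, Aqp1 was detected in 97.8% of the score-high wells (92.6% to 100% by plate), Mest in 93.1% (83.6% to 100%), Gap43 in 79.6% (65% to 94.2%), Mrc1 in 73.1% (45% to 90.9%), Cd276 in 71.8% (41.8% to 89%) and Ptx3 in 66.7% (37.0% to 91.2%). In the other wells the means were 82.4%, 71.7%, 44.9%, 33.1%, 35.0% and 30.7%. The order of the last 4 genes differed between plates, and Ptx3 was above Mrc1, Gap43 and Cd276 in the first Tie1 fl/fl plate. Across the kept wells of a plate the 6 genes were weakly related, with a median Spearman correlation over the 8 plates of 0.108 to 0.283 for the 15 pairs. The wells of a plate share a library preparation and differ in depth, and the score was weakly related to the number of detected genes, with a Spearman correlation of 0.116 to 0.370 among the plates. Both are descriptions of these plates.

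The score genes were higher in the score-high wells of every plate by construction. Within plates the median difference in log2(CPM + 1) was 3.55 for Ptx3, 2.84 for Mrc1, 2.78 for Cd276, 2.72 for Aqp1, 2.37 for Mest and 2.19 for Gap43. When the wells were chosen with the other 5 genes, the gene left out was higher in 8 of 8 plates. Its median difference was 2.25 for Ptx3, 2.01 for Cd276, 1.92 for Mrc1, 1.76 for Mest, 1.73 for Aqp1 and 1.53 for Gap43. The score genes were chosen with earlier results of these data known, so this is a description and no independent support. In the score-high wells the Mest level was 438 and 651 CPM for Tie1 fl/fl, 448 and 785 CPM for Tie1-deleted, 532 and 390 CPM for the controls of the double strain and 1025 and 810 CPM for the Tie1/-2-deleted plates, an order of plates kept below. Ptx3 was at 257 and 140, 132 and 99.0, 268 and 223, and 86.3 and 116 CPM in the same order. Mest was thus highest in the score-high wells of the Tie1/-2-deleted plates, which held 2 of the 3 lowest levels of Ptx3. Above a fixed cut on the mean, a well with more of 1 score gene can pass with less of another. These levels therefore describe the chosen wells and do not show a change with genotype.

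Outside the score, few genes marked these wells in all plates. Over the 10128 genes that averaged 10 CPM or more in either the score-high or the other wells, 8 (0.079%) were at least 2-fold higher in the score-high than in the other wells of 8 of 8 plates, and 6 of these are the score genes themselves. The other 2 were Sorcs2 and Copg2. Sorcs2, a neuronal sorting receptor, was at 3.44 and 64.3, 28.3 and 34.4, 50.8 and 36.1, and 41.4 and 22.4 CPM in the score-high wells, and between 0.230 and 19.02 CPM in the other wells (mean 35.1 against 7.17 CPM, median log2 difference 2.13). The first Tie1 fl/fl plate was low in both kinds of wells. In all, 219 genes outside the score were higher in 8 of 8 plates by any amount (2.22% of the genes, the score genes included). All comparisons of score-high with other wells describe the cells that the score chose and carry no test.

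Copg2, a coat protein gene of vesicle transport, was at 139 and 252, 168 and 251, 215 and 128, and 331 and 280 CPM in the score-high wells and at 42.0 to 105 CPM in the other wells. The plate sums of both kinds of wells did not overlap, and the median log2 difference was 1.73 (range 1.16 to 2.21). Copg2 lies next to Mest on mouse chromosome 6 (GRCm38) and is read from the opposite strand. Mest spans chr6:30723547-30748465 and Copg2 chr6:30747554-30896794, and their exons share 912 bases at chr6:30747554-30748465. Strand use in the counting is not given in the sources used here, so reads from those bases cannot be assigned to either gene. With Mest taken out of the score, Copg2 was higher in 8 of 8 plates by a median of 1.26 (range 0.90 to 1.90), but Mest was higher in those wells too, so this does not separate the reads of both genes. Of the 24 imprinted genes listed, 15 reached 10 CPM, and Grb10 (median log2 difference 0.53) and Gnas (0.37) were the others that were higher in 8 of 8 plates. The median of those 15 was 0.15, beside -0.03 over all 10128 genes.

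The 20 genes outside the score with the largest median differences, among those higher in 8 of 8 plates, depended on the filter, since a gene could reach 10 CPM through the score-high wells alone. Of the 20, 11 were under 10 CPM in the other wells, and Fhl2, Pclaf, Spc25, Cdca7, Adamts15 and Gmnn were under 10 CPM over all kept wells. With 10 CPM over all kept wells as the filter, chosen after seeing the data, 14 of the 20 stayed among the 20 highest, and the number of genes at least 2-fold higher in 8 of 8 plates was again 8. Of the 6 proliferation markers listed, 1 was higher in 8 of 8 plates. Birc5, which encodes survivin, was at 89.1 and 9.34, 37.0 and 30.5, 8.93 and 9.50, and 29.0 and 21.7 CPM in the score-high wells and at 2.58 to 22.6 CPM in the other wells. It was higher in the score-high wells of each plate, but its level differed between plates by more. Itih5, a hyaluronan-binding inhibitor chain, was at 222 and 288, 216 and 333, 187 and 272, and 584 and 403 CPM in the score-high wells, against 93.9 and 64.8, 37.7 and 103, 88.0 and 80.1, and 261 and 221 CPM in the other wells (median log2 difference 1.46). It was higher within every plate, and the Tie1/-2-deleted plates were highest in both kinds of wells. Pclaf, Spc25, Cdca7, Foxm1, Gmnn and Tk1, which act in the cell cycle as Birc5 does, Mmp15 and Adamts15 (matrix proteases), Gpx3 (a secreted glutathione peroxidase), Itgb2 (the beta chain of leukocyte integrins), Fhl2, Vwa1, Nceh1, Sh3pxd2b, Cotl1 and Atl1 completed the 20, with medians of 1.32 to 1.86.

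At least 2-fold lower in the score-high wells of 8 of 8 plates were 16 genes (0.158%), and 347 (3.43%) were lower by any amount. The largest median difference was that of Sbspon, which encodes a secreted protein with a thrombospondin repeat (6.82 against 57.1 CPM, -3.82), followed by Klrb1f, a lectin-like receptor gene (-3.31), and the metalloprotease gene Adam33 (-3.11). Fhdc1 (-2.95), Atp6v0e2 (-2.91), Gm37509 (-2.70), Rai2 (-2.58), the B cell gene Cd79a (-2.53) and Lama5 (-2.45) were the others of the 10 lowest besides Gdf10, and of these Fhdc1, Atp6v0e2, Rai2 and Cd79a were less than 2-fold lower in some plates. Sbspon and Gm37509 lie on opposite strands and share 2001 exonic bases, which is 72.8% of Sbspon and 63.1% of Gm37509, and, with strand use not given, reads from those bases cannot be assigned to either gene, although both are counted among the 16. Of the 10, 7 were under 10 CPM in the score-high wells, and Cd79a was under 10 CPM over all kept wells and reached the filter through the other wells alone. Valve markers were lower as well. Gdf10, a BMP family ligand and valve marker, was at 85.5 and 6.85, 81.8 and 50.7, 35.5 and 89.97, and 38.3 and 52.4 CPM in the score-high wells and at 178 to 516 CPM in the other wells, a median log2 difference of -2.67. The highest score-high level lay below the lowest level of the other wells. A read of Gdf10 was found in a smaller share of the score-high wells in 6 of 8 plates, with a mean over plates of 67.2% against 76.9%. The exceptions were the first Tie1 fl/fl plate (98.5% against 95.4%) and the second control plate of the double strain (92.7% against 91.3%). Cldn11, a tight junction claudin of valves, was at 158 and 65.5, 171 and 30.7, 92.4 and 124, and 2.17 and 21.5 CPM, against 103 to 681 CPM in the other wells. Of the 9 valve markers, 8 were lower in 8 of 8 plates, with Slc41a1 (median -1.73), Gjd3 (-1.49), Neo1 (-1.48), Gata2 (-1.14), Foxc2 (-0.88) and Gja4 (-0.60) after Gdf10 and Cldn11. Itga9, an integrin chain of valve LECs, was the exception and was higher in 8 of 8 plates (0.26).

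**Figure D2:**
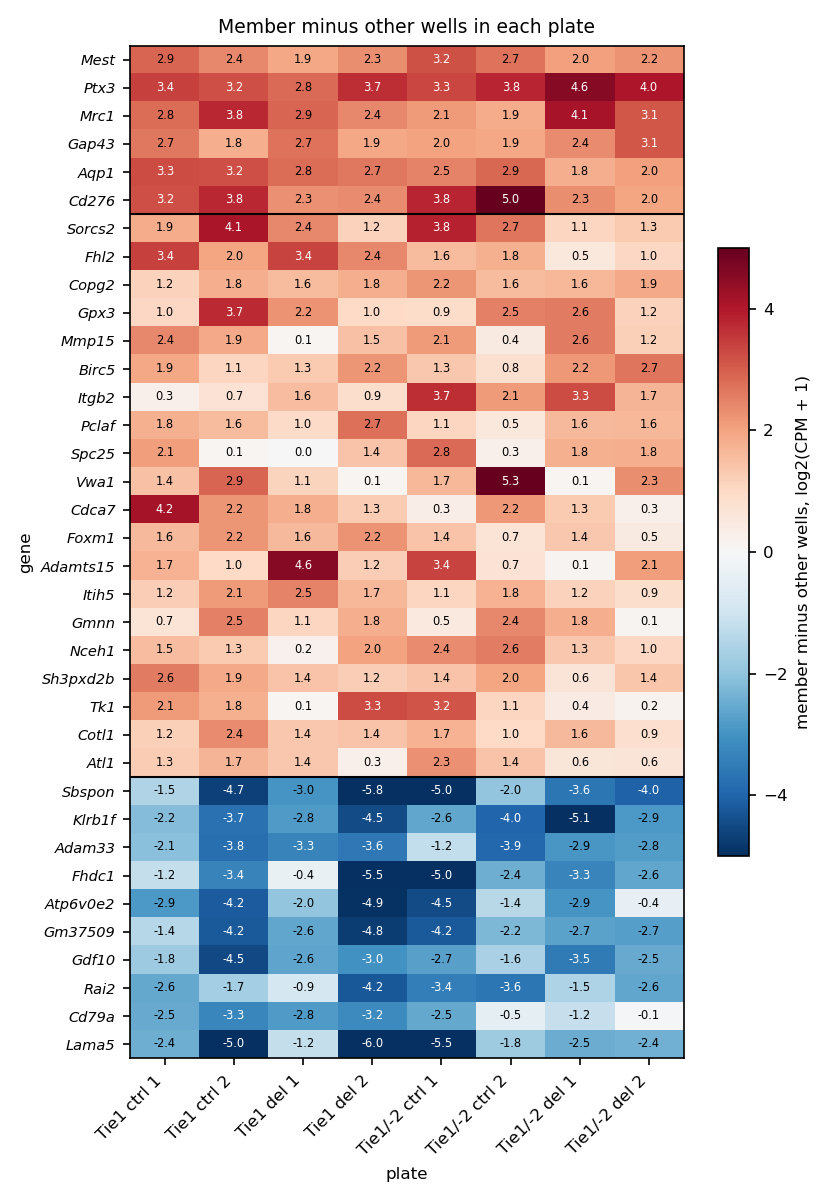
Difference in log2(CPM + 1) between the score-high ("member") and the other wells (colour and printed value) for the 6 score genes, the 20 genes highest and the 10 lowest outside the score by the median (rows), in each of 8 plates (columns). Copg2 is between 1.16 and 2.21 in every plate and Gdf10 between -4.51 and -1.62, while genes such as Vwa1 and Spc25 are near 0 in some plates.

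By their medians, markers of collectors were lower as well, and those of capillaries higher. Over all 10128 genes, 3.43% were lower and 2.22% higher in 8 of 8 plates. Of the 7 collector markers, 4 were lower in 8 of 8 plates and none was higher: Tgm2, a transglutaminase (782 against 1433 CPM, median -0.83), Ccdc3 (-2.36), Bgn, which encodes biglycan (-0.91), and Tsc22d1 (-0.53). Ccdc3 shares exons with a long noncoding gene, so its reads are uncertain. Of the 7 capillary markers, 4 were higher in 8 of 8 plates. Lyve1, a hyaluronan receptor, was at 2498 and 3086, 2706 and 3797, 2389 and 2891, and 3977 and 4060.1 CPM in the score-high wells and at 1454 to 3601 CPM in the other wells (median 0.69). It was higher within each plate, although the ranges over plates overlap. Piezo2, a mechanosensitive channel (0.64), Slco2b1, an organic anion transporter (0.56), and the protease gene Pcsk6 (0.55) were the others. The medians were 0.55 over the capillary, -0.83 over the collector and -1.48 over the valve markers, beside -0.03 over all genes.

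The general LEC markers were close to level. Prox1 was at 775 CPM in the score-high and 905 CPM in the other wells, higher in 2 of 8 plates. Of the 12 identity markers, Nrp2, a co-receptor for VEGF-C (482.2 against 267 CPM, median 0.87), Lyve1 and Flt4 (1910 against 1439 CPM, 0.41) were higher in 8 of 8 plates and Fxyd6 was lower (-0.74). In the Tie pathway, Ptprb, which encodes the phosphatase VE-PTP that acts on Tie2, was lower in 8 of 8 plates (144 against 217 CPM, -0.65). Tek was lower in 7 of 8 (-0.76), and Tie1 and Angpt2 had medians of -0.02 and 0.06. Ackr2, the atypical receptor of LECs that clears inflammatory chemokines, was at 305 and 895, 284 and 743, 472 and 548, and 348 and 231 CPM, against 96.6 to 332 CPM in the other wells (median 1.14), and was higher within every plate.

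Matrix genes were mixed. Of 19 basement membrane and collagen genes with at least 10 CPM, Col4a1, Col4a2, Col18a1, Lamc1 and Nid1 were higher in 8 of 8 plates, by medians of 0.18 to 0.33. Lama5, the laminin alpha 5 chain, was lower (15.1 against 79.6 CPM, -2.45). The membrane protease gene Mmp14 (0.68) was higher, while Serpine2 (-1.32), which encodes a protease inhibitor, and Plat (-1.03), which encodes tissue plasminogen activator, were lower. Stab1, a scavenger receptor like Mrc1, was higher by only 0.25. The immune ligand genes did not follow Cd276: of the 3 with at least 10 CPM, Vsir was lower in 8 of 8 plates (-0.96) and the others were mixed.

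Markers of other cells were summed in the same wells. Keratinocyte markers were at 22.1 CPM in the score-high and 131 CPM in the other wells, lower in 7 of 8 plates. Blood endothelial markers were at 293 and 555 CPM, and fibroblast markers at 267 and 194 CPM. Mural cell markers were at 117 and 62.4 CPM, of which Kcnj8, a potassium channel gene, made up 83.3 and 24.6 CPM and was higher in 7 of 8 plates. Abcc9, which encodes the partner subunit of that channel, was at 9.73 and 3.38 CPM and higher in 6 of 8 plates. Of the other 6 mural markers, Acta2 was at 14.3 and 16.5 CPM and Tagln at 4.98 and 6.57 CPM, and Pdgfrb (1.81 and 6.33 CPM), Cspg4 (1.77 and 1.09 CPM), Rgs5 (0.676 and 1.78 CPM) and Notch3 (0.517 and 2.03 CPM) were lower still. Immediate early genes were at 2592 and 2790 CPM. Mitochondrially encoded transcripts were at 5242 and 5373 CPM, and the second Tie1/-2-deleted plate stood apart with 7870 and 8331 CPM, against 4516 to 5562 CPM in the other plates. The part of these differences in the results was not tested.

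**Figure D3:**
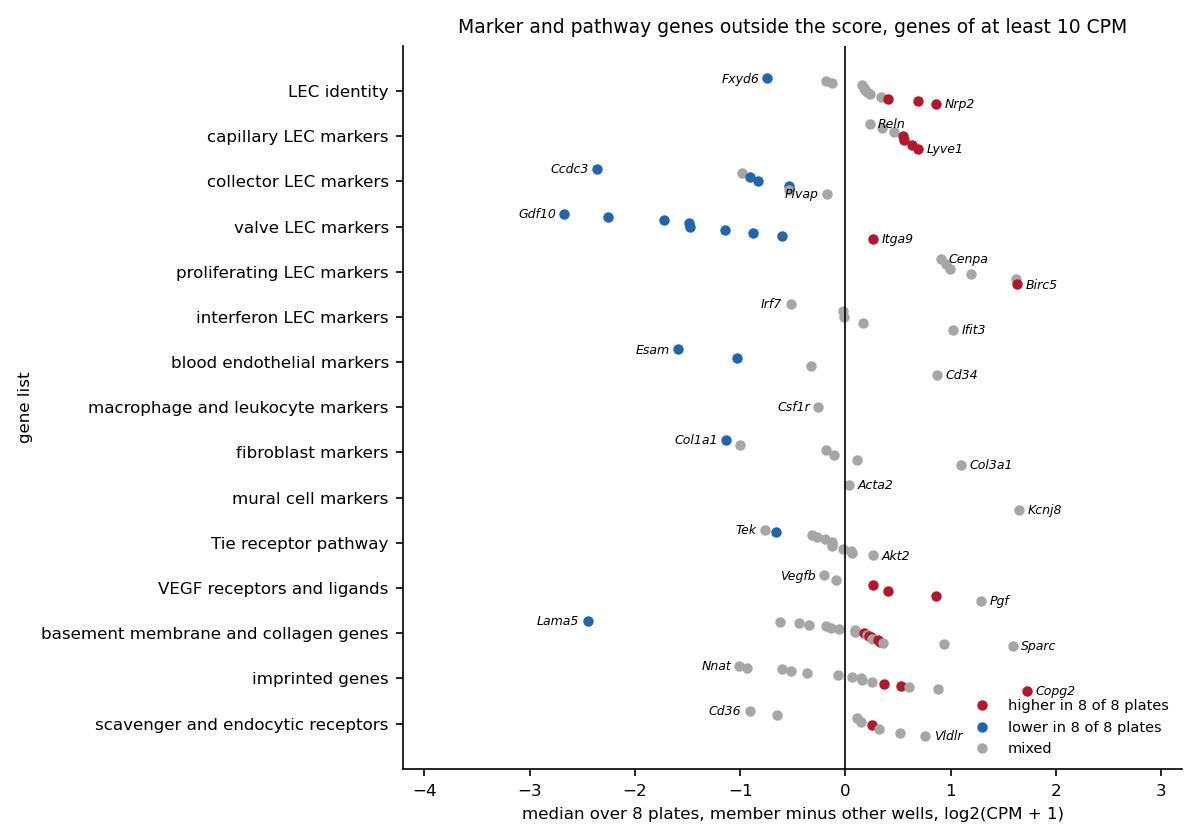
Median over 8 plates of the score-high ("member") minus the other wells in log2(CPM + 1) (x axis) for the genes of 15 marker and pathway lists outside the score with at least 10 CPM (y axis, 1 point per gene). Valve and collector markers lie below 0 apart from Itga9 at 0.26, and the capillary markers lie above 0.

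Cell cycle genes varied between plates. The 6 proliferation markers summed to 241 CPM in the score-high and 93.0 CPM in the other wells. By plate the sums were 748 and 40.6, 284 and 334, 119 and 61.1, and 206 and 137 CPM in the score-high wells, against 225 and 47.2, 151 and 86.4, 59.1 and 72.2, and 68.2 and 35.4 CPM. They were higher in 6 of 8 plates and the first Tie1 fl/fl plate stood above the rest. Mki67, a proliferation antigen, was detected in a larger share of the score-high wells in 6 of 8 plates, with a mean over plates of 28.1% against 22.5%. The same kind of cut was applied to each marker list, and shares were compared within plates because plates differ in level and in their number of score-high wells. Above the proliferation cut lay 20.9% of the score-high and 14.6% of the other wells (means of 8 plates), with the higher share in the score-high wells of 8 of 8 plates. The shares ranged from 7.14% to 55.9% and from 2.56% to 51.0% between plates, which is more than the gap within most of them. Above the capillary cut lay 22.1% and 10.7%, higher in 7 of 8 plates. In the Tie1/-2-deleted plates only 6.00% and 3.11% of the score-high wells lay above it, against 3.64% and 3.68% of the other wells. Above the valve cut lay 9.50% and 16.6%, lower in 7 of 8 plates. The first Tie1 fl/fl plate was the exception for valves (30.9% against 24.2%). Above the collector cut lay 3.43% and 10.5%, lower in 6 plates and with no well above it in the Tie1/-2-deleted plates. Thbs1, Pdgfb and Cd36, which encode a matrix protein, a mural cell ligand and a fatty acid receptor, put 30.8% and 32.0% above their cut, with the lower share in the score-high wells of all 4 control plates and the higher in those of all 4 deleted plates.

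The share of score-high wells was then compared between genotypes. It was 26.0% (68 of 262 wells) and 7.94% (27 of 340) in the Tie1 fl/fl plates and 48.9% (156 of 319) and 16.1% (55 of 342) in the Tie1-deleted plates. In the double strain it was 12.1% (42 of 347) and 16.6% (55 of 331) in the controls and 28.8% (100 of 347) and 45.9% (161 of 351) in the Tie1/-2-deleted plates. The genotypes overlapped in the Tie1 strain and did not in the double strain. The plates with gene symbols had the higher shares in each genotype. The 95% Wilson interval was 7.94% (5.51 to 11.3) in the second Tie1 fl/fl plate and 45.9% (40.7 to 51.1) in the second Tie1/-2-deleted plate, and such intervals cover counting error only.

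With Tie1 deletion the mean share went from 16.9% ± 12.7 (SD, n = 2 plates) to 32.5% ± 23.2, with overlap between the genotypes. The difference was 15.5 points (two-sided p = 0.667 in an exact permutation test that did not pair plates by layout, with 0.333 the smallest possible). Without the first Tie1-deleted plate this difference was -0.866 points. With Tie1/-2 deletion it went from 14.4% ± 3.19 to 37.3% ± 12.1, a difference of 23.0 points (p = 0.333 in a two-sided exact permutation test, which cannot go lower with groups of 2 plates). Over both strains the difference was 19.3 points (exact permutation within strains, two-sided p = 0.111, with 0.0556 the smallest possible). Within each table layout the deleted plate had the higher share, by 1.88 and 2.03 times with Tie1 deletion and by 2.38 and 2.76 times with Tie1/-2 deletion. None of the 3 tests could pass 0.05 with 2 plates per genotype.

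**Figure D4:**
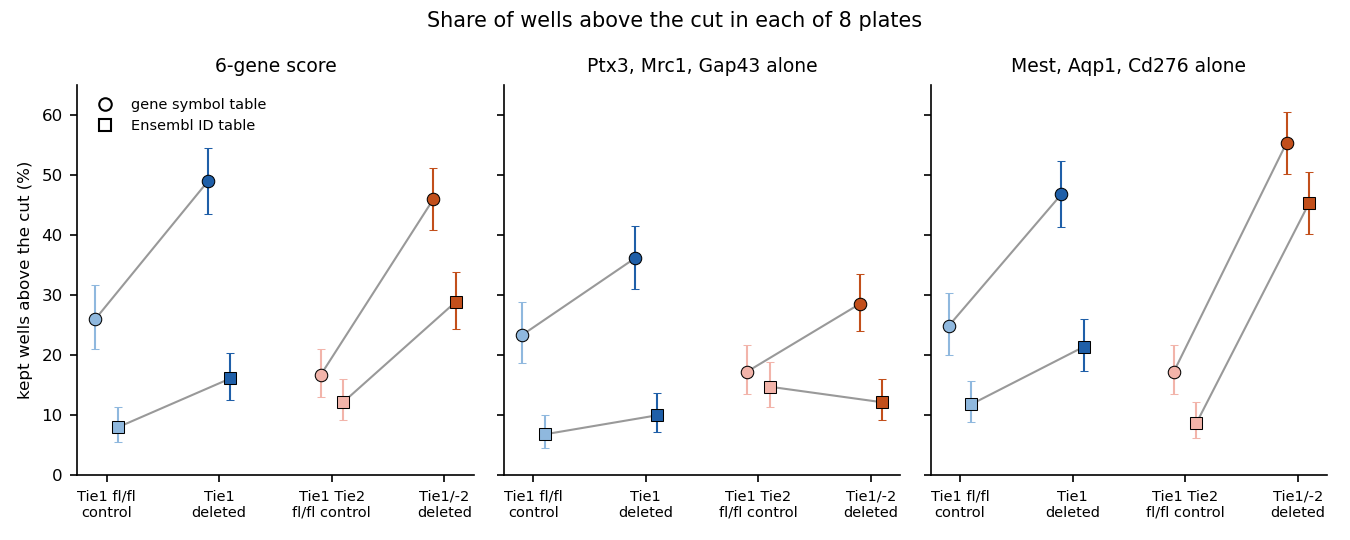
Percentage of kept wells above the cut (y axis) in the 2 plates of each genotype (x axis), for the 6-gene score and for scores of Ptx3, Mrc1 and Gap43 alone and of Mest, Aqp1 and Cd276 alone. Bars are 95% Wilson intervals, circles mark tables with gene symbols and squares those with Ensembl identifiers, and the deleted plates stand 26.5 points above controls on average in the Mest, Aqp1 and Cd276 score and 6.16 points in the other.

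Which score genes carried the share was examined with the genes split in 2 sets, an alternative chosen after seeing the data. By Ptx3, Mrc1 and Gap43 alone, the plates had 23.3% and 6.76% (Tie1 fl/fl), 36.1% and 9.94% (Tie1-deleted), 14.7% and 17.2% (controls of the double strain) and 12.1% and 28.5% (Tie1/-2-deleted) of wells above the cut. By Mest, Aqp1 and Cd276 alone, they had 24.8% and 11.8%, 46.7% and 21.3%, 8.65% and 17.2%, and 45.2% and 55.3%. The Tie1/-2-deleted plates lay above their controls by the second set and overlapped with them by the first. The difference with Tie1/-2 deletion was 4.34 points by the first set and 37.3 points by the second, a description with no test, since the sets were chosen after seeing which genes were higher with deletion. When 1 gene was dropped from the score in turn, the difference over both strains lay between 13.3 points, without Mest, and 22.0 points.

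Levels over all kept wells do not depend on the choice of wells. They are given by the same 2 sets, which were chosen after seeing these data, so they are no independent support for that split. The counts of a plate were summed per gene and tested with edgeR's quasi-likelihood test and Benjamini-Hochberg adjustment over 20191 genes. Genes with an adjusted p under 0.05 are said to be called, and 1.02% of the genes were called for Tie1/-2 deletion, 0.262% as risen and 0.753% as fallen. Mest was at 137 and 164, 275 and 273, 119 and 106, and 481 and 469 CPM in Tie1 fl/fl, Tie1-deleted, double strain control and Tie1/-2-deleted plates. Both deleted plates lay above both controls in each strain, as 7.35% of all genes separated in 1 direction in both, and Mest rose by a log2 of 2.102 (SE 0.23) with Tie1/-2 deletion (adjusted p = 0.007 by edgeR). Aqp1 was at 243 and 259, 350 and 488, 232 and 265, and 706 and 662 CPM, again without overlap in either strain, and rose by 1.48 (SE 0.25, adjusted p = 0.041 by edgeR). Cd276 was at 57.9 and 56.2, 71.7 and 70.1, 33.1 and 42.1, and 176 and 106 CPM and rose by 1.95 (SE 0.34, adjusted p = 0.042 by edgeR). With the replicate number as a block the adjusted p was 0.0238 for Mest, 0.0564 for Aqp1 and 0.134 for Cd276 by edgeR. With single plates left out, Mest was called in 6 of 8 fits, Aqp1 in 2 and Cd276 in 1, and their estimates were above 0 in all 8.

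For the other score genes no change was called. Ptx3 was at 72.7 and 24.4, 72.5 and 23.8, 57.2 and 44.2, and 27.8 and 57.2 CPM, Mrc1 at 38.2 and 46.8, 67.5 and 40.8, 83.0 and 54.3, and 36.4 and 101 CPM, and Gap43 at 53.8 and 73.4, 92.6 and 99.7, 72.0 and 72.5, and 80.9 and 112 CPM. The genotypes overlapped for Ptx3 and Mrc1 in both strains, and the deleted plates were the higher ones for Gap43. The log2 changes with Tie1/-2 deletion were -0.27 (SE 0.61), -0.03 (SE 0.46) and 0.42 (SE 0.27), with adjusted p of 0.956, 0.998 and 0.684 by edgeR. In the average of both deletions, for which 0.728% of the genes were called, Mest (1.48, SE 0.16, adjusted p = 0.010) and Aqp1 (1.11, SE 0.18, adjusted p = 0.040) rose, and Cd276 was at 1.13 (SE 0.23, adjusted p = 0.095, all by edgeR). With the block the adjusted p was 0.0293 for Mest and 0.0643 for Aqp1. For Tie1 deletion alone 0 genes were called by edgeR, with 864 at an unadjusted p under 0.05. Sums over a plate do not separate a change in the share of wells with a gene from a change in its level. By well, Mest had a read in 58.5% and 77.3% of the kept wells of the double strain controls. In the Tie1/-2-deleted plates it had one in 72.9% and 96.6%. Its median log2(CPM + 1) over wells was 2.23 and 3.07 in those controls and 5.06 and 7.09 in the deleted plates.

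Copg2 and Itih5, higher in the score-high wells of 8 of 8 plates, and Kcnj8, higher in 7 of 8, were called over all kept wells too. Copg2 rose with Tie1/-2 deletion by 1.52 (adjusted p = 0.032), Itih5 by 1.70 (adjusted p = 0.025) and Kcnj8 by 3.47 (adjusted p = 0.043, all by edgeR). With the replicate block their adjusted p was 0.0530, 0.0810 and 0.0804 by edgeR, and with single plates left out they were called in 2, 4 and 2 of 8 fits. Kcnj8 in the score-high wells was at 16.1 and 8.56, 43.1 and 27.9, 1.17 and 30.6, and 309 and 230 CPM and so was highest in the Tie1/-2-deleted plates. In the first control plate of the double strain it was lower than in the other wells (9.93 CPM). Without the block the edgeR estimates of Lyve1 (1.20, adjusted p = 0.067), Ackr2 (-0.48, adjusted p = 0.839) and Sorcs2 (1.22, adjusted p = 0.730) did not pass. With the block Lyve1 did (adjusted p = 0.0408 by edgeR).

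Within the score-high wells the genotypes were compared on plate sums of those wells, by the same test over 15752 genes. For Tie1 deletion 0 genes were called by edgeR, with 709 at an unadjusted p under 0.05 and 138 called by DESeq2. For Tie1/-2 deletion 24 genes were called (0.152% of those tested), of which 3 rose (0.019%) and 21 fell (0.133%). For the average of both deletions 18 were called (0.114%), of which 5 rose (0.0317%) and 13 fell (0.0825%). Together these are 26 genes, with 16 in both. The control and deleted plates of the strain did not overlap for any of the 24, as for 36.3% of all genes tested. Without the second Tie1/-2-deleted plate 1 gene was called in place of 24, without the first 13, without the double strain controls 9 and 14, and without the Tie1 fl/fl plates 44 and 45. With the replicate number as a block, which within a strain is also the table layout and, in the Tie1 strain, the sex of the mice, 8 genes were called. Of the 24 genes, 7 were among them (Eln, Fn1, Fndc1, Gucy1a1, Igfbp5, Lrg1 and Tnc), and the others had an adjusted p of 0.0532 to 0.178 in that edgeR fit. Of the 18, 10 were called with the block, and Angpt2, Comp, Enpp2, Esm1, Prkar1b, Sez6l, Tppp3 and Ucp2 were not. The second Tie1/-2-deleted plate, on which the count depends most, is the one with more mitochondrial transcripts, and the part of these was not tested.

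The 3 genes that rose with Tie1/-2 deletion were Angpt2, Fn1 and Tnc. Angpt2 was at 408 and 446, 926 and 995, 208 and 545, and 2732 and 2629 CPM in the score-high wells, and rose by a log2 of 2.73 (SE 0.41, adjusted p = 0.046 by edgeR) with Tie1/-2 deletion (adjusted p = 0.117 with the replicate block). Fn1, which encodes fibronectin, was at 757 and 692, 1341 and 1559, 915 and 797, and 3961 and 3711 CPM, and rose by 2.07 (SE 0.22, adjusted p = 0.008 by edgeR). Tnc, which encodes the matrix protein tenascin-C, was at 4.79 and 5.91, 70.5 and 123, 28.5 and 11.1, and 517 and 307 CPM, and rose by 4.29 (SE 0.61, adjusted p = 0.040 by edgeR). In all 3 genes both deleted plates lay above both controls in both strains, with the Tie1/-2-deleted plates highest, a separation that 6.82% of all genes tested showed. In the average of both deletions they were called as well.

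In the average of both deletions 2 further genes rose, Enpp2 and Esm1, with an adjusted p of 0.173 and 0.255 by edgeR with the replicate block. Enpp2, which encodes autotaxin, the enzyme that makes lysophosphatidic acid, was at 1.08 and 0, 37.8 and 47.2, 1.62 and 1.24, and 97.6 and 90.9 CPM in the score-high wells (log2 change 6.01, SE 0.78, adjusted p = 0.022 by edgeR). The control plates of the Tie1 strain had 20 and 0 reads of it and the deleted plates 1564 and 707, which is 50.4 times the CPM of the pooled reads (95% counting interval 32.6 to 82.7). In the other wells its estimate was 1.04 (adjusted p = 0.407), and the test of the difference between score-high and other wells gave a log2 of 5.14 with an adjusted p of 0.865 by edgeR. Esm1, an endothelial proteoglycan of sprouting vessels, was at 0.269 and 0, 1.62 and 9.89, 0.090 and 0.219, and 87.4 and 86.0 CPM (adjusted p = 0.042 by edgeR). The double strain controls had 1 and 3 reads and the deleted plates 1774 and 4279, a ratio of 535 (interval 209 to 1965). The reads of both genes carry no molecular identifiers, so both intervals cover read counting alone and not the spread between cells or plates. Both genes separated deleted from control plates in both strains.

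With Tie1/-2 deletion 21 genes fell, and Eln, Lrg1 and Fndc1 were among those also called with the replicate block. Eln, which encodes elastin, was at 730 and 997, 558 and 363, 821 and 727, and 58.3 and 60.5 CPM and fell by 3.80 (SE 0.34, adjusted p = 0.005 by edgeR). Lrg1, a secreted modulator of TGF beta signaling, was at 362 and 528, 259 and 195, 438 and 450, and 26.9 and 29.5 CPM and fell by 4.08 (SE 0.36, adjusted p = 0.005 by edgeR). Fndc1, a fibronectin type III domain gene, was at 874 and 1216, 723 and 693, 1432 and 1210, and 155 and 127 CPM and fell by 3.32 (SE 0.31, adjusted p = 0.005 by edgeR). The Tie1/-2-deleted plates were the lowest for each, and the Tie1-deleted plates lay between them and the controls. With Tie1/-2 deletion the 8 fibroblast markers had a median log2 change of -3.92 in the score-high wells, with 7 below 0. The 8 blood endothelial markers had a median of 1.98, with 7 above 0, beside -0.02 over all genes tested. None of either list was called. For keratinocyte markers it was -0.14 (5 tested) in the score-high wells and -3.16 (6 tested, 2 called as fallen) over all kept wells. The part of such cells in the falls was not tested.

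Some genes came close to 0 in the score-high wells after Tie1/-2 deletion. Igfbp5, an IGF-binding protein gene, had 2749 and 2727 reads in the controls and 5 and 23 in the deleted plates, a ratio of CPM of 553 (95% counting interval 382 to 833). Prkar1b, which encodes a regulatory subunit of protein kinase A, had 1415 and 1110 reads against 0 and 3 (ratio 2380, interval 813 to 11548). With the replicate block its adjusted p was 0.0771 by edgeR. Sez6l had 876 and 552 reads against 0 and 4 (ratio 1009, interval 393 to 3710), and Igf1, the insulin-like growth factor gene, 615 and 248 against 1 and 4 (ratio 488, interval 208 to 1507). With the block the adjusted p was 0.0860 for Sez6l and 0.178 for Igf1 by edgeR. These reads carry no molecular identifiers, so the intervals cover counting error only. In the Tie1-deleted plates Igfbp5 was at 93.9 and 58.4 CPM and Prkar1b at 36.3 and 8.95 CPM.

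Nrp2, the VEGF-C co-receptor that was higher in the score-high wells of each plate, was at 604 and 471, 535 and 390, 718 and 722, and 216 and 203 CPM in them and fell by 1.88 with Tie1/-2 deletion (SE 0.27, adjusted p = 0.040 by edgeR, and 0.0771 with the block). The 2 features thus went in opposite directions: in the deleted plates the score-high wells still had more Nrp2 than the other wells (96.2 and 93.9 CPM). Gucy1a1, a subunit of the nitric oxide receptor, was at 268 and 229, 145 and 85.7, 351 and 397, and 4.09 and 12.2 CPM and fell by 5.64 (SE 0.57, adjusted p = 0.007 by edgeR). Ntn1, the guidance cue netrin 1, fell by 2.19 (adjusted p = 0.031) and Ptn, the growth factor pleiotrophin, by 5.28 (adjusted p = 0.026, both by edgeR). With the block these were 0.0860 and 0.0532. Comp, a cartilage matrix protein gene (-5.48), Ucp2, a mitochondrial carrier (-2.84), Tppp3 (-2.999), Pcp4l1 (-2.65), Btnl9 (-3.79), Pmp22, a myelin protein gene (-3.12), Prrt4 (-2.80), Fgl2 (-1.80) and Gm21541 (-2.73) fell as well. RefSeq lists Gm21541 as a synonym of Ccl21d, one of several nearly identical chemokine genes on chromosome 4, so its reads are uncertain. Tie1 itself completed the 21 (-2.02, adjusted p = 0.040 by edgeR).

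**Figure D5:**
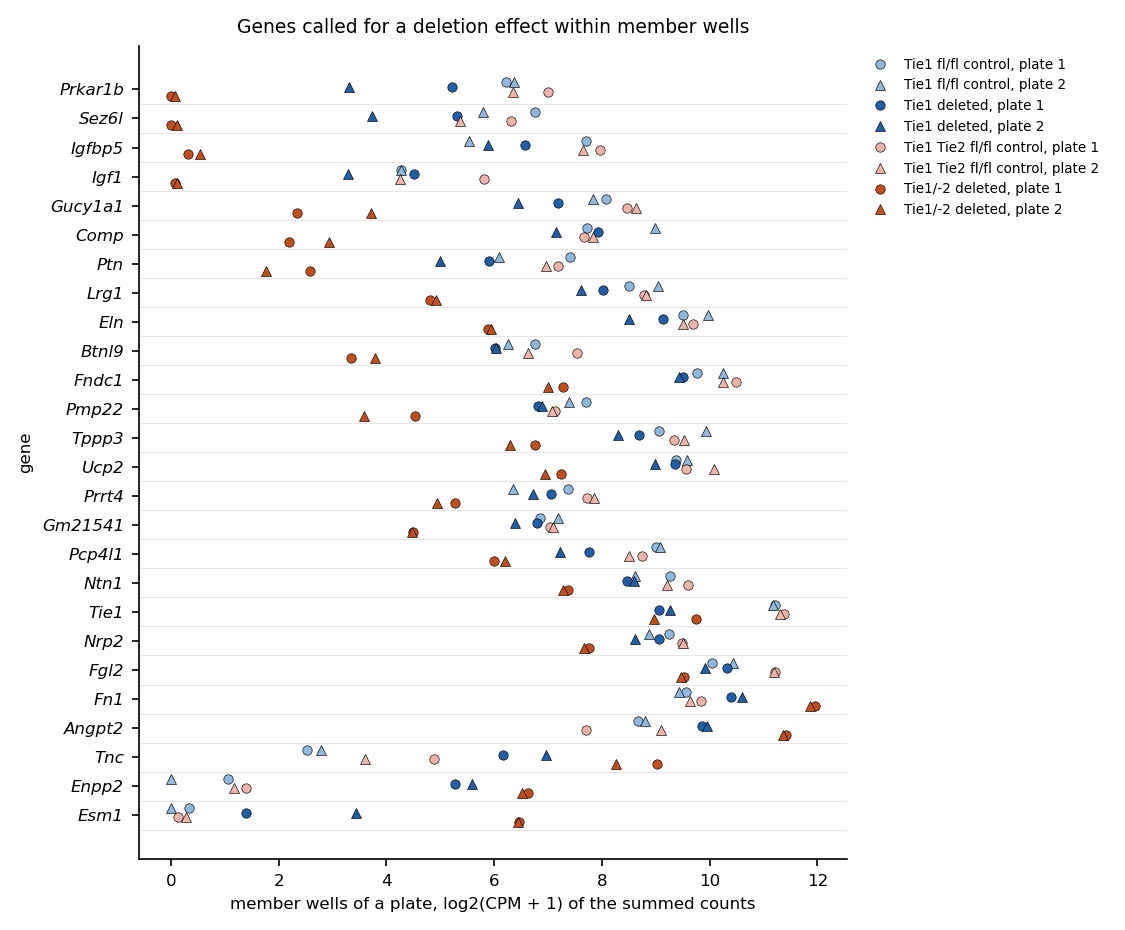
Level of the 26 genes called within the score-high ("member") wells for Tie1/-2 deletion or the average of both deletions, as log2(CPM + 1) of the summed counts (x axis), with 1 point per plate, circles for plate 1 and triangles for plate 2. Both Tie1/-2-deleted plates lie beyond both controls of their strain for the 24 genes called for Tie1/-2 deletion, from Prkar1b near 0 to Tnc at 307 and 517 CPM.

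Most of these genes were also called in the other wells. Of the 24 genes called for Tie1/-2 deletion, 23 were also called in the other wells, where 0.931% of 19334 genes were called, and 24 had an estimate of the same sign. Prrt4 was the exception, with an estimate of -1.39 in the other wells (adjusted p = 0.159 by edgeR). Whether its effect differed from that in the score-high wells is not shown by those p-values. The fit of score-high against other wells called 0 of 20067 genes for a different average effect, with 942 genes at an unadjusted p under 0.05 and 222 called by DESeq2. For a different Tie1/-2 effect edgeR called 0 as well, with 893 (4.45%) at an unadjusted p under 0.05. Of the 24 genes 11 were at such a p, but they had been picked by their call in the score-high wells. The difference between the deletions within the score-high wells was called for 0 genes by edgeR, with 866 at an unadjusted p under 0.05. Over all kept wells it was called for 17 genes (0.0842%).

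Pathway lists had few called members in the score-high wells for Tie1/-2 deletion, where 0.152% of all genes were called. In the Tie receptor pathway Angpt2 rose and Tie1 fell of 14 tested members, and the edgeR estimate for Tek was -2.26 (adjusted p = 0.279). Of 11 VEGF receptor and ligand genes only Nrp2 was called, and the median was -1.05 beside -0.02 over all genes tested. Of 13 sprouting genes Angpt2 was called (median 0.78), of 22 basement membrane and collagen genes Fn1 (median -0.42), and of 7 capillary markers Tppp3 (median -0.81). No member of the collector (median -1.76) or valve (median -1.21) lists was called, though over all kept wells 4 of 7 collector markers and 1 of 9 valve markers fell, beside 0.753% of all genes. The medians over all kept wells were about as large, at -1.80 for the collector and -1.02 for the valve list.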

How the data were processed

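Single LECs sorted into plates were profiled with Smart-seq. The authors deposited raw read counts per gene and well, with no normalization. The submitters' processing notes name TopHat2 (2.1.1), SAMtools (0.1.18), Subread featureCounts and mouse genome GRCm38, and strand use in counting is not given in the sources used here. Tables in 2 layouts were joined on 42520 gene symbols, with 95.5% to 96.8% of the counts of a plate. Spike-ins, listed in 4 of the 8 tables and at most 0.155% of their counts, were left out. No doublet caller was run, and the droplet libraries were not used here.

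Counts were summed per plate over the wells compared. The sums were tested with edgeR (version 4.0.16 in R 4.3.3) in 1 fit of 8 plates with a mean for each of 4 genotypes, using TMM factors, filterByExpr and the quasi-likelihood F-test. P-values were adjusted by Benjamini-Hochberg over all genes tested, and an adjusted p under 0.05 was called. The contrasts were Tie1 deletion, Tie1/-2 deletion, their average and their difference. A fit of score-high and other sums with plate as a block compared deletion effects between both kinds of wells. Levels of single plates are CPM of summed counts, a pseudocount of 1 CPM was added on the log2 scale, and CPM is not corrected for gene length. Shares were tested by exact permutation over plates. The tests were tested on simulated data. Python 3.11.15 was used with numpy (2.4.6), pandas (2.3.3), scipy (1.17.1) and matplotlib (3.10.9).

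The wells, gene lists and comparisons were chosen with earlier results of these data known. Genes named are the score genes, 12 genes the study names, the 20 highest and 10 lowest by median difference among genes of at least 10 CPM in the score-high or the other wells with 1 sign in 8 of 8 plates, up to 10 called genes that rose and 10 that fell per deletion without overlap between plates, and up to 4 per list. Xist and Y-linked genes were left out. Other called genes and list members were named after their values were seen. Alternatives were DESeq2 (1.42.0), its size factors within edgeR, no low-count filter, a term for the layout, a block for the replicate number, other percentiles, depths and scores, and the omission of single plates. Scores of fewer genes and a filter on the level over all kept wells were chosen after seeing the data.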

Additional observations from a re-analysis of the deposited data

Results flagged for a closer look

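Over all kept wells the effects of the 2 deletions differed by edgeR's test of the difference for 8 of the genes named here (adjusted p under 0.05), which is what picked them out. On the log2 scale the effect of Tie1/-2 deletion minus that of Tie1 deletion was -5.35 for Comp, -4.97 for Ptn, -4.97 for Sez6l, -3.72 for Btnl9, -2.98 for Eln, -2.90 for Lrg1 and -2.68 for Cldn11. For Prkar1b it was -11.10, a fitted value that depends on the prior count because the Tie1/-2-deleted plates were at 0.030 and 0.038 CPM. The same test called 0.0842% of the 20191 genes. Within the score-high wells alone it called 0 genes, with 866 at an unadjusted p under 0.05. The Tie1 strain has 1 female plate in each genotype and the double strain has male plates alone, and the part of sex in this contrast was not tested.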

How the results depend on the processing

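The counts of called genes depended on the method. Within the score-high wells DESeq2 called 138 genes for Tie1 deletion, 379 for Tie1/-2 deletion and 363 for the average, against 0, 24 and 18 by edgeR, and without a filter on low counts edgeR called 32, 223 and 262. Of the DESeq2 calls 135 rose and 244 fell for Tie1/-2 deletion and 178 rose and 185 fell for the average, where edgeR had 3 and 21, and 5 and 13. DESeq2 size factors in edgeR gave 15 for Tie1/-2 deletion, the 80th percentile 42, and a term for the layout 10 for the average. Over all kept wells DESeq2 called 865 and no filter 1069 for the average, in place of 147. DESeq2 called 222 genes for an effect that differed between score-high and other wells, and edgeR 0. A 1.5-fold limit gave 16 genes higher in 8 of 8 plates in place of 8, and the 80th percentile 15. The cause was not tested. Of the alternatives for the shares and counts, 137 were classed as the same, 29 as moved and 1 as reversed. For the shares, this class means the same direction and the same side of the test threshold, whatever the size. No share test could pass that threshold, so the class does not show that a share difference stayed near the reported value. Of the alternatives for single genes, called or not, 1477 kept their direction and side of the threshold, 220 lost a call, 11 gained one, 13 reversed and 5 moved.

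Plates of a strain share replicate numbers, which follow accession order. The deviations of same-numbered plates had a correlation of 0.160 in the Tie1 strain and 0.189 in the double strain, and with 2 pairs per strain this does not show that they are paired. Within a strain the number coincides with the table layout and, in the Tie1 strain, with sex, so block, layout and sex cannot be told apart there. With a replicate block 8 genes were called for Tie1/-2 deletion, 12 for the average and 58 over all kept wells, and 0 for Tie1 deletion.

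With single plates omitted, the share difference ranged from -0.866 to 32.0 points for Tie1 deletion, from 14.5 to 31.5 for Tie1/-2 deletion and from 11.1 to 27.5 over both, and the lowest of the first came without the first Tie1-deleted plate. The counts within score-high wells ranged from 0 to 1 for Tie1 deletion, from 1 to 45 for Tie1/-2 deletion and from 13 to 49 for the average, where 49 were called without the first Tie1 fl/fl plate and 28 without the first Tie1-deleted plate. Over all kept wells they ranged from 33 to 134, with 46 and 33 without the first and second Tie1-deleted plates and 45 and 69 without the double strain controls. The genes at least 2-fold higher ranged from 8 to 12. The estimates of Mrc1 and Ptx3 over all kept wells, none of them called, changed sign. For Mrc1 they ranged from -0.85 to 0.47 with Tie1/-2 deletion, from -0.26 to 0.40 in the average and from -0.013 to 0.61 with Tie1 deletion. For Ptx3 they ranged from -0.80 to 0.093, from -0.61 to 0.31 and from -0.95 to 0.89.

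With 2 plates per genotype no share test could pass 0.05. The second Tie1 fl/fl plate had 27 score-high wells, the fewest. The score is a continuous range, so the number of wells depends on the cut, and the genotypes' plates also differ in table layout and detected genes. Intervals cover counting error only.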
